A study of Mus musculus with 32 samples.

Results

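Gene expression was compared between livers with and without a deletion of Rps6, taken 20 h after partial hepatectomy, in 8 of the 32 livers of the series. The 8 livers were chosen by their labels alone. They were 4 livers with the Mx-Cre transgene (Cre plus) and 4 livers without it (Cre minus). All came from male C57BL/6 mice aged 3 months that were homozygous for a floxed Rps6 allele, so the controls carried the floxed allele too. The Mx promoter responds to interferon, and Cre was switched on with polyinosinic-polycytidylic acid, an injected double-stranded RNA that raises interferon. This promoter is known to act in blood-forming cells and macrophages as well as in hepatocytes, so the deletion was not confined to one liver cell type by design. The time from injection to surgery was not given in the sources used here, nor whether Cre minus mice received the injection. In each genotype, replicates A and B carried the batch label PHX3 and replicates C and D the batch label PHX2, which left 2 livers per genotype and batch. No sham-operated livers were labelled, and nothing in the labels says that the samples are separate mice. The p-values here reflect sample-to-sample spread, which may be technical.

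Ribosomal protein S6 is part of the small ribosomal subunit, and its loss blocks the making of new small subunits. Cells that cannot complete ribosomes are known to stabilise p53, because free ribosomal proteins bind Mdm2, the ubiquitin ligase that destroys p53. After part of the liver is removed, the hepatocytes that remain leave rest and enter DNA synthesis, while Kupffer cells, the resident macrophages, and other non-parenchymal cells supply signals and clear debris. At 20 h most mouse hepatocytes are known to be in G1, before the wave of DNA synthesis, so this time shows the state of the liver on the way to replication.

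Expression was read on a 1-colour Affymetrix array as log2 values, and a difference is the Cre plus mean minus the Cre minus mean on that scale. A probe set, the array's group of probes for a transcript, was tested if 3 or more of the 32 arrays read it above their 30th percentile, as was so for 9249 of 12422. It is named as called when limma, fitted over all 32 arrays with batch as a term, gave a Benjamini-Hochberg adjusted p under 0.05 over all tested probe sets. The 28 array pairs at 20 h correlated at r between 0.937 and 0.992 across probe sets. Cre plus C stood apart: its mean r with its own group, 0.958, was the lowest of the 8, and the Cre plus livers of PHX2 correlated at 0.960 where the other pairs of one genotype and batch reached 0.983 to 0.992. The PHX2 controls correlated more with the PHX3 deleted livers (mean r 0.9805 over 4 pairs) than with the PHX3 controls (mean r 0.963 over 4 pairs). Rps6 bears out the genotype label of every liver, but whether the batch labels of the 8 livers hold was not tested, and each value given within PHX2 or PHX3 rests on them. The difference between the 3′ and 5′ Actb probe sets, a measure of RNA integrity, ranged from 0.835 to 0.994 in Cre minus and from 0.865 to 1.01 in Cre plus livers. Albumin (Alb), the defining hepatocyte protein, lay between 13.63 and 13.78 in all 8 livers.

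The targeted gene matched the labels in every liver. Rps6 read 11.55, 11.82, 11.43 and 11.48 in Cre minus A to D and 7.69, 7.32, 6.95 and 6.96 in Cre plus A to D. All 4 Cre plus livers were far below all 4 controls, with a difference of −4.34 (SE 0.15, adjusted p = 3.14e-17). The Cre plus livers of PHX3 read higher than those of PHX2, and the genotype differences were −4.50 within PHX2 and −4.18 within PHX3. The annotation of this probe set also lists a pseudogene, Rps6-ps4, and where its probes lie relative to the deleted part is unknown here.

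Outside Rps6, few transcripts separated the genotypes at 20 h, and the largest group among those that did was macrophage genes that fell. Of 9249 probe sets, 27 were called (0.292%), 5 higher and 22 lower in Cre plus livers. Apart from Rps6 they named 19 genes, 4 higher (0.0589% of 6787 genes tested) and 15 lower (0.221%). In all 27 the genotypes did not overlap and the difference had the same sign in PHX2 and PHX3. Calls over both batches favour both features, and over all tested probe sets 2.08% had genotypes that did not overlap and 43.6% had the same sign in both batches. The difference was at least 2-fold in 14 of the 27. At an unadjusted p under 0.05 there were 409.

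Kupffer cell genes formed the largest group that fell. Cd5l, a scavenger receptor family protein that macrophages secrete, read 8.70, 8.74, 8.21 and 7.92 in Cre minus A to D and 6.21, 6.65, 6.75 and 6.50 in Cre plus A to D. It was 3.64-fold lower (−1.87, SE 0.33, adjusted p = 0.00550). Clec4f, a lectin that marks Kupffer cells, read 8.96, 9.04, 8.42 and 8.42 against 7.03, 7.09, 7.54 and 7.14. For both genes the highest Cre plus liver lay below the lowest control, and the gap was wider within PHX3 (−2.29 and −1.94) than within PHX2 (−1.44 and −1.08). Clec4f was 2.85-fold lower (SE 0.22, adjusted p = 7.86e-04).

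The 3 chains of complement C1q, the pattern recognition unit that starts the classical complement pathway and is made mainly by macrophages, fell together. C1qa read 8.72, 8.92, 9.04 and 8.90 in Cre minus and 7.67, 7.74, 8.35 and 7.87 in Cre plus livers. C1qb read 8.20, 8.30, 8.001 and 7.96 against 6.80, 6.998, 7.44 and 6.73. C1qc read 9.76, 9.81, 9.99 and 9.73 against 8.62, 8.61, 9.28 and 8.74. Cre plus C was the highest of its genotype for all 3 chains and still lay below every control. The differences were −0.99 (SE 0.17, adjusted p = 0.00385), −1.12 (SE 0.19, adjusted p = 0.00247) and −1.01 (SE 0.16, adjusted p = 0.00150), close to 2-fold each. C1qb, C1qc and C1qa lie next to one another in that order in the RefSeq gene table, with no other listed gene between them.

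Genes of myeloid signalling and the alternative complement pathway also fell. Tyrobp, the adaptor (DAP12) of activating myeloid receptors, read 7.66, 8.05, 7.91 and 7.51 in Cre minus and 6.83, 6.66, 7.03 and 6.53 in Cre plus livers, a difference of −1.02 (SE 0.15, adjusted p = 6.64e-04). Cd53, a leukocyte tetraspanin, differed by −0.85 (SE 0.15, adjusted p = 0.00536) and Cfp, properdin, which stabilises the alternative complement convertase, by −0.80 (SE 0.15, adjusted p = 0.00785). Fcgr1, the high-affinity receptor for IgG, fell by 0.41 (SE 0.09, adjusted p = 0.0322), with Cre minus at 5.66 to 5.94 and Cre plus at 5.08 to 5.53. Tmsb4x, the actin-binding peptide thymosin beta 4, abundant in leukocytes, differed by −0.73 (SE 0.15, adjusted p = 0.0261). The genotypes of each of these genes did not overlap.

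The promoters of 4 of these genes are printed because the members fell together and the myeloid factor PU.1 is known to drive many macrophage genes. Each runs from 250 bases before to 50 after the annotated start, 5′ to 3′ on the gene's strand, from RefSeq (build GRCm38.p6). Capitals mark the PU.1 word GAGGAAGT, searched on both strands, so ACTTCCTC is the same word read on the other strand. The positions are chr4:136892865-136893164 (minus strand) for C1qc, chr3:106790100-106790399 (minus) for Cd53, chr4:136886151-136886450 (minus) for C1qb and chr6:83656067-83656366 (minus) for Clec4f.
C1qc: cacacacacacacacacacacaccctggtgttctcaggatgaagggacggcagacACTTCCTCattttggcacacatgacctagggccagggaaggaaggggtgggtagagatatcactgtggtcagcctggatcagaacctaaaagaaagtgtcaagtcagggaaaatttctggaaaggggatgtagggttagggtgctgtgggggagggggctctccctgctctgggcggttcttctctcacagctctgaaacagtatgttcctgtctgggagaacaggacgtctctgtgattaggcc
Cd53: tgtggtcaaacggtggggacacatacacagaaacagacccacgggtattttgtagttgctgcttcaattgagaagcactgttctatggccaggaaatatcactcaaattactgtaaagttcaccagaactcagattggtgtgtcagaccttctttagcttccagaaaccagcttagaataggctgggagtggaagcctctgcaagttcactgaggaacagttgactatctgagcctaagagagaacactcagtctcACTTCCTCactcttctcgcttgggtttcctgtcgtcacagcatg
C1qb: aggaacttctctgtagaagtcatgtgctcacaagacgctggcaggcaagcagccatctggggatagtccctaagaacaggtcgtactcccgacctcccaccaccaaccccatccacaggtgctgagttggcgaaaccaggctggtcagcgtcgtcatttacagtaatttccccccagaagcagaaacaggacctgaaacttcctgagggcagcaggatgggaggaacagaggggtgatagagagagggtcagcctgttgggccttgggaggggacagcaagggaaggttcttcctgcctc
Clec4f: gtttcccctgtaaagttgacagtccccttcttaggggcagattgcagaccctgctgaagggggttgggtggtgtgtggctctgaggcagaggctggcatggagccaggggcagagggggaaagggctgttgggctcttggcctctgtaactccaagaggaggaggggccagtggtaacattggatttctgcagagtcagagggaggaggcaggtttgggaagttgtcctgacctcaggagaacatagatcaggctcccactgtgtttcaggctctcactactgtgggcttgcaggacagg
The word began at position −195 from the start in C1qc and at position 6 in Cd53, and it was in neither of the other promoters shown. It was in 2 of the 13 promoters matched among 16 genes called lower, Rps6 included, and in 2 of 17 promoters from 15 of the 21 macrophage genes tested (C1qc and Ctss). The share of all 32851 promoters that held it was 3.20%. The erythroid word AGATAA, searched on both strands, was in 11.18% of all promoters, in 3 of 9 promoters of the erythroid list (Alas2, Epb42 and Epor), in 1 of 17 of the macrophage list and in none of the 13. A p53 word, 2 CATG cores with 6 bases between them, was in 0.71% of all promoters. It was in 1 of 18 promoters from the list of p53 targets (Cdkn1a) and in none of 3 from genes called higher. A match is a description of these letters and not a binding site.

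**Figure D1:**
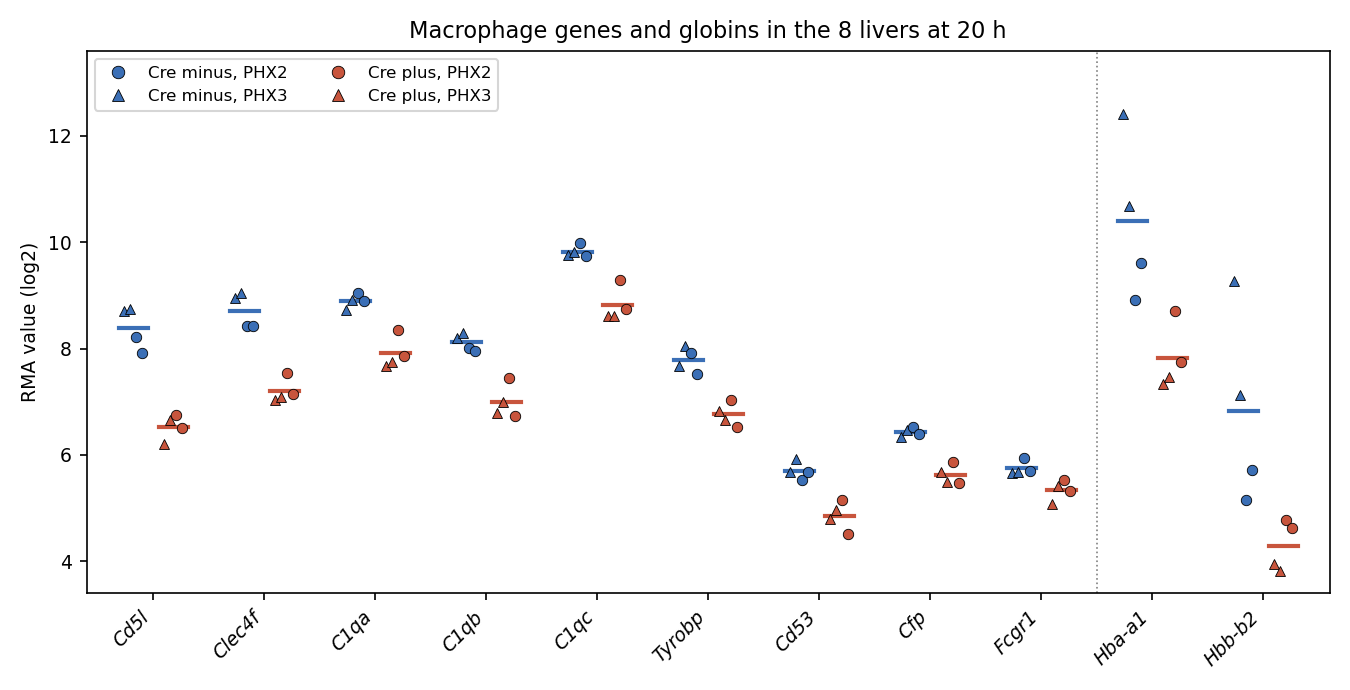
Log2 RMA value (vertical axis) of 9 macrophage genes and 2 globins in each of the 8 livers at 20 h. Circles are PHX2 and triangles PHX3 livers, and the bar is the mean of 4 livers. The genotypes are separate for every gene, from −0.41 for Fcgr1 to −1.87 for Cd5l among the macrophage genes, and the globins differ by far more in PHX3, where Hba-a1 read 12.41 and 10.68 in Cre minus against 7.33 and 7.46 in Cre plus livers.

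Nearly all of the Kupffer cell and macrophage list had lower values in Cre plus livers. Of its 28 genes 21 were tested, of which 6 fell, none rose and 20 had a negative difference, with a median of −0.51 against −0.00 over all genes. The genotypes did not overlap for 14 of the 21. Over all 6787 genes tested 15 fell (0.221%), 3419 had a negative difference and the genotypes did not overlap for 152. The members of this list were chosen with earlier results of these data known. The mean level of the list was between 7.50 and 7.77 in the 4 Cre minus livers and between 6.77 and 7.25 in the 4 Cre plus livers, with Cre plus C highest among the latter. Its median was −0.35 within PHX2 and −0.84 within PHX3. Marco, a scavenger receptor of resident macrophages, differed by −1.17 (adjusted p = 0.0617) and Csf1r, the receptor for the macrophage growth factor CSF1, by −0.70 (adjusted p = 0.0555), just outside the threshold. Broader macrophage markers had smaller values: Cd68 −0.62, Adgre1 −0.41 and Lyz2 −0.42, none past the test. In whole liver RNA, fewer macrophages and less RNA of these genes per macrophage cannot be told apart.

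Apart from the cholangiocyte and progenitor list and the erythroid list, described below, other immune and non-parenchymal lists showed no called member. The 11 neutrophil and monocyte genes tested had a median of −0.04, the 9 T and NK cell genes 0.03, the 7 B cell genes 0.05, the 14 endothelial genes 0.03 and the 15 stellate cell and fibroblast genes 0.05. Among the named neutrophil genes, S100a9 and S100a8, calcium-binding alarmins, had −0.64 and −0.56, the largest of their list. MHC class II genes had a median of −0.14 over 8 genes, with Cd74, the invariant chain, at 0.50 within PHX2 and −1.33 within PHX3. The mean level of the T and NK cell list was 5.54 to 5.78 in Cre minus and 5.46 to 5.89 in Cre plus livers, and that of the endothelial list 6.21 to 6.25 and 6.18 to 6.35. Both lists overlapped between the genotypes. The 15 hepatocyte genes had a median of 0.06 and no called member. The 4 genes each of platelets, adipocytes and pancreatic acinar cells had medians of 0.02, −0.02 and 0.05.

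Fabp7, a fatty acid binding protein known from glia and, in liver, from Kupffer cells, had one of the steepest falls. It read 7.20, 7.78, 6.45 and 6.14 in Cre minus A to D and 5.25, 5.32, 5.22 and 5.45 in Cre plus A to D. The Cre plus livers sat close together, while the PHX3 controls lay well above the PHX2 controls. The difference was −1.59 (SE 0.23, adjusted p = 6.64e-04), or −0.96 within PHX2 and −2.21 within PHX3. It was the called member of the cholangiocyte and progenitor list, whose other members did not pass and whose median over 8 genes was −0.13. Krt8 and Krt18, epithelial keratins, had −0.43 and −0.21.

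Plpp3 and Pltp, which act on lipids, fell as well. Plpp3, a membrane phosphatase that degrades lysophosphatidic acid and related lipids, read 8.38, 7.46, 7.51 and 7.23 in Cre minus and 6.88, 6.97, 6.29 and 6.43 in Cre plus livers, a difference of −1.004 (SE 0.20, adjusted p = 0.0138). Pltp, the phospholipid transfer protein of plasma lipoproteins, differed by −0.85 (SE 0.18, adjusted p = 0.0312), with 7.07 to 7.80 in Cre minus and 6.31 to 6.55 in Cre plus livers. Controls were highest in Cre minus A for both genes.

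The globins had the largest differences after Rps6 and the widest spread. Hba-a1, an alpha chain of adult haemoglobin, read 12.41, 10.68, 8.91 and 9.61 in Cre minus A to D and 7.33, 7.46, 8.71 and 7.75 in Cre plus A to D. Hbb-b2, a beta chain, read 9.28, 7.13, 5.15 and 5.71 against 3.94, 3.81, 4.78 and 4.63. Cre minus A and B, the PHX3 controls, were high, and the 2 PHX2 controls lay near the highest Cre plus liver. The differences were −2.59 (SE 0.58, adjusted p = 0.0482) and −2.53 (SE 0.56, adjusted p = 0.0424). Within PHX2 they were −1.03 and −0.73, and within PHX3 −4.15 and −4.33. A probe set shared by Hbb-bt, Hbb-bs, Hbb-b2 and Hbb-b1 differed by −2.83 (adjusted p = 0.0472). Globin genes of the same chain type are near-identical copies, so a probe set may not separate the copies of its type.

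The rest of the erythroid list did not pass the test. Of 13 genes tested the 2 globins fell and 11 did not pass, and the median was −0.07. Alas2, the erythroid enzyme of heme synthesis, had −0.22, Slc4a1, the band 3 anion exchanger of red cells, −0.23, and Gata1 and Klf1, erythroid transcription factors, 0.13 and 0.12. Bpgm, which makes 2,3-bisphosphoglycerate in red cells, had −0.47 (adjusted p = 0.571). The mean level of the list ran from 6.68 to 7.29 in Cre minus and from 6.35 to 6.70 in Cre plus livers, which overlapped. The part of red cells left in the tissue in the globin difference was not tested.

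Genes called higher were a p53 target, a co-regulator and detoxifying enzymes. Phlda3, a p53-induced inhibitor of Akt signalling, read 5.66, 5.898, 6.25 and 6.07 in Cre minus A to D and 7.27, 7.26, 6.39 and 6.84 in Cre plus A to D. Cre plus C lay only just above the highest control. The difference was 0.97 (SE 0.17, adjusted p = 0.00589), or 0.45 within PHX2 and 1.48 within PHX3, and the batches did not differ past the threshold (adjusted p = 0.0879). Ifrd1, an interferon-related developmental regulator that modulates transcription, had the largest rise, from 5.004, 4.596, 5.15 and 5.05 in Cre minus to 6.52, 6.81, 7.03 and 6.09 in Cre plus livers. This is 3.16-fold (1.66, SE 0.31, adjusted p = 0.00793), with 1.46 within PHX2 and 1.86 within PHX3.

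Ephx1 and Aldh2 rose by less, from high levels. Ephx1, microsomal epoxide hydrolase, read 10.17, 10.62, 10.46 and 10.57 in Cre minus and 10.85, 11.08, 11.16 and 11.10 in Cre plus livers (0.60, SE 0.13, adjusted p = 0.0312). It belongs to the lists of p53 and of NRF2 targets. Aldh2, mitochondrial aldehyde dehydrogenase, had 2 called probe sets. The first read 10.35, 10.44, 9.91 and 10.13 against 10.69, 10.82, 10.58 and 10.80. The differences were 0.51 (SE 0.08, adjusted p = 7.86e-04) and 0.50 (SE 0.09, adjusted p = 0.00793), and a further Aldh2 probe set was not called. The first was 0.67 within PHX2 and 0.36 within PHX3.

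The p53 targets as a list had a positive median. Of the 18 tested, Phlda3 and Ephx1 rose, 16 did not pass and 13 had a positive difference, with a median of 0.22 in all, 0.16 within PHX2 and 0.23 within PHX3. Over all 6787 genes tested 4 rose and 3368 had a positive difference. The members of the p53 list were chosen with earlier results of these data known. The list's mean level was 6.75 to 6.86 in Cre minus and 7.0002 to 7.18 in Cre plus livers, with no overlap. Mdm2, the p53 ubiquitin ligase and itself a p53 target, read 6.32, 6.61, 6.33 and 6.16 against 7.02, 7.21, 6.77 and 6.91. Its groups were separate and its difference was 0.62 in both batches together (adjusted p = 0.0587). Cdkn1a, the cell cycle inhibitor p21, read 8.20, 8.22, 9.32 and 9.64 in Cre minus and 9.46, 9.22, 10.16 and 9.29 in Cre plus livers. In that probe set the PHX2 controls were as high as the PHX3 deleted livers, and the difference of 0.69 did not pass (adjusted p = 0.999). A second Cdkn1a probe set read 7.43, 7.53, 8.08 and 8.42 against 9.08, 9.13, 9.25 and 8.13. There the PHX2 controls lay below the PHX3 deleted livers and the genotypes overlapped through Cre plus D, with a difference of 1.03 (adjusted p = 0.838). Ccng1, cyclin G1, had 0.75, at 5.41 and 5.96 in Cre plus A and B but 4.21 and 4.70 in C and D. Gadd45a, a growth arrest gene, read 7.51 in Cre plus C and at most 5.56 elsewhere.

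One further probe set, listed for Rpl22l1, Orc5 and Gm15421 alike, fell by 1.13 (SE 0.17, adjusted p = 9.92e-04), alike in PHX2 (−1.12) and PHX3 (−1.13). It read 10.55, 10.21, 9.99 and 9.75 in Cre minus and 9.30, 9.20, 8.51 and 8.98 in Cre plus livers. Another 4 called probe sets, all lower, have no gene name here and differed by −1.51, −0.81, −0.64 and −0.63. Their Cre plus livers lay below their controls in every case.

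The same transcripts were compared in livers of the other times, which the 20 h comparison did not use apart from the shared estimate of the spread. Of the 26 called probe sets other than Rps6, 26 had the same sign at 0 h, 26 at 30 h and 25 at 40 h, and 2, 7 and 19 of them were called there. Over all tested probe sets 51.0%, 49.3% and 51.8% were negative at those times. Called shares of all probe sets were 0.0649% at 0 h, 0.281% at 30 h and 5.35% at 40 h. The 21 lower probe sets had a median of −1.01 at 20 h, against −0.53, −0.68 and −0.77 at 0, 30 and 40 h. The 5 higher ones had 0.60 at 20 h and 0.74, 0.63 and 0.63 at the other times. These probe sets, and the genes named next, were chosen by their 20 h values, which favours larger differences at 20 h. Fabp7 had −1.59 at 20 h and −0.42, −0.49 and −0.29 at 0, 30 and 40 h. Marco had −1.17 at 20 h and −0.10, −0.28 and 0.06. The globins were nearer to equal at 0 h, with Hba-a1 at −0.48, and reached −2.63 at 30 h and −3.12 at 40 h.

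**Figure D2:**
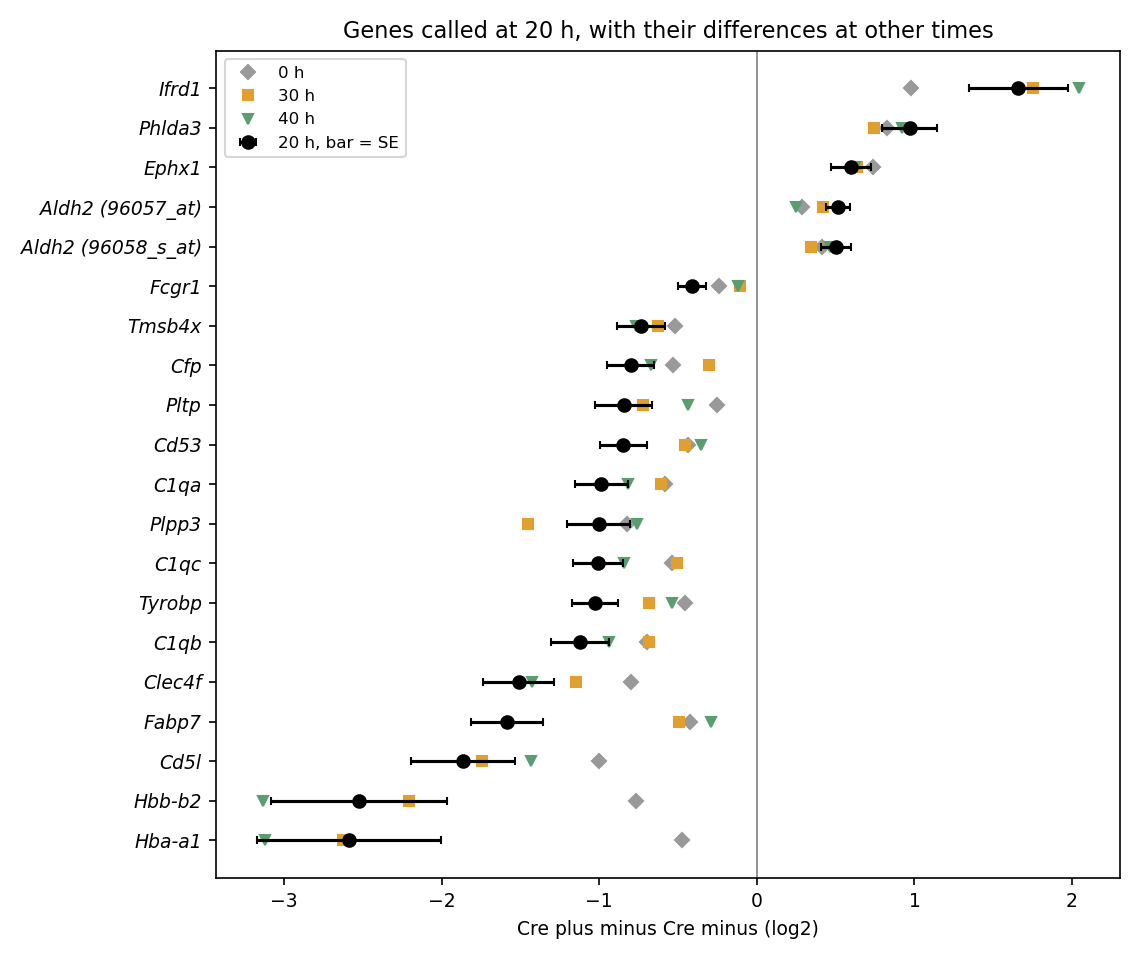
Cre plus minus Cre minus difference (log2, horizontal axis) of the probe sets called at 20 h with a single gene, other than Rps6. Black circles with SE bars are 20 h, and grey diamonds, orange squares and green triangles are 0, 30 and 40 h. All points of a row lie on one side of 0, and Fabp7 at 20 h lies farther out than at any other time. Choosing the probe sets by their 20 h calls favours larger values at 20 h.

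No probe set passed the test that the genotype difference at 20 h differed from that at 0 h. limma called 0 of 9249 (0%), where 132 had an unadjusted p under 0.05. Fabp7 had the value −1.16 for that difference of differences (SE 0.32), Tyrobp −0.57 (SE 0.21) and Hba-a1 −2.11 (SE 0.82). None of these was past the adjusted threshold, so a change in the effect of the deletion between 0 and 20 h was not shown for any gene.

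Cell cycle lists had small negative medians at this time, and no member was called. Among 33 DNA replication genes none was called, 26 were negative and the median was −0.16. Over all 6787 genes tested 3419 were negative. The median of the replication list was −0.01 within PHX2 and −0.31 within PHX3. Opposite signs in the batches were seen in 18 of the 33, against 3823 of all 6787. Mcm5, a subunit of the replicative helicase, read 7.26, 8.26, 7.12 and 7.04 in Cre minus and 6.70, 6.62, 7.07 and 6.92 in Cre plus livers, with Cre minus B well above the rest and a difference of −0.59. Mcm3 and Mcm4 had −0.44 and −0.38, and Rrm2, a ribonucleotide reductase subunit, 0.46. Among 27 mitosis genes 25 were negative with a median of −0.09, led by Stmn1, a microtubule destabiliser (−0.66), and Cdk1, the mitotic kinase (−0.40). The mean level of the mitosis list was 5.594 to 5.816 in Cre minus and 5.504 to 5.587 in Cre plus livers. The groups did not overlap but nearly met, through Cre minus A and Cre plus C. Within PHX2 and PHX3 the median of the mitosis list was −0.16 and −0.09. Of the 27 genes, 12 had opposite signs in the batches. Pcna, the replication clamp, had −0.19 and Mki67, a marker of cycling cells, −0.08. Of 11 G1 genes none was called, and the median was −0.06. Ccnd1, cyclin D1, read 7.06, 9.62, 7.51 and 7.03 in Cre minus and 7.005, 7.39, 6.77 and 7.997 in Cre plus livers, with Cre minus B alone far above the rest. A second Ccnd1 probe set read 6.16, 6.52, 6.41 and 6.33 in Cre minus livers, with a difference of −0.04. Ccne1, cyclin E1, had −0.01. For comparison, the medians of the DNA replication and mitosis lists were −0.17 and −0.14 at 0 h, before surgery. They were −0.38 and −0.31 at 30 h, and −0.83 and −1.17 at 40 h.

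Immediate early genes had a median of 0.17 over 19 genes with none called. Myc, a growth-promoting transcription factor, read 3.79, 4.36, 4.14 and 4.95 in Cre minus and 4.57, 4.27, 6.63 and 4.41 in Cre plus livers. Cre plus C was far above the other 3, and the difference was 0.66. The same liver was highest for Dusp1, a MAP kinase phosphatase, at 8.99 and for Btg2, an antiproliferative p53 target, at 9.97.

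Ribosomal protein genes other than Rps6 lay close to 0. The 27 tested had a median of 0.00, lay between −0.25 (Rpl10a) and 0.22 (Rps27), and none was called. Rpl11 and Rpl5, which bind Mdm2, were not tested, and nor were Trp53 and Bax. Ribosome biogenesis factors had a median of 0.17 over 37 genes with none called, but −0.17 within PHX2 and 0.59 within PHX3. Rrs1, a factor of large-subunit assembly, came nearest, with 6.84 to 7.15 in Cre minus and 7.37 to 7.75 in Cre plus livers (0.49, adjusted p = 0.0721). Rcl1, Nop58 and Gnl2 had 0.60, 0.51 and 0.49. Among 22 translation factors, with a median of 0.03 and none called, Eif5, which helps start codon selection, had 0.69 (adjusted p = 0.352) with separate groups, 8.58 to 9.12 against 9.27 to 9.71. Eif4g2 had 0.50.

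Of the stress and inflammation lists, none beyond the shared gene Ephx1 had a called member. Endoplasmic reticulum chaperones were negative in 18 of 19 with a median of −0.30, or −0.03 within PHX2 and −0.48 within PHX3. The list's mean level was highest in Cre minus A and B, at 9.39 and 9.21, and between 8.39 and 8.78 in the other 6 livers. Creld2 and Dnajb9, both induced by protein misfolding, had −0.66 and −0.61, and Pdia3, a disulfide isomerase, −0.48. ATF4 targets had a median of 0.05, and Herpud1, of membrane protein degradation, had 0.84 within PHX2 and −1.71 within PHX3. NRF2 targets had a median of −0.00, with Gclc and Gclm, the subunits of glutamate-cysteine ligase, at −0.55 and −0.47. Interferon response genes, of interest because the inducer raises interferon, had a median of −0.04 over 25 genes, with Igtp at −0.76 and Usp18 at 0.59. Their median was 0.16 within PHX2 and −0.23 within PHX3. Acute phase genes had a median of 0.05 over 24. Hamp, the iron hormone hepcidin, had 0.65, and Lcn2, lipocalin 2, read 8.42 in Cre plus C and 11.08 or more in the other 7 livers. The 3 metallothioneins tested had a median of 0.11, with Mt1 at 0.27 and Mt2 at 0.11. Their median was −0.57 within PHX2 and 0.80 within PHX3.

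Metabolic lists likewise had no called member. Fatty acid oxidation genes had a median of −0.20 over 25, with 19 negative, led by Cyp4a14 (−1.08) and Cyp4a10 (−0.85), targets of the lipid sensor PPARA, and Ppara itself had −0.49. The median of this list was −0.46 within PHX2 and −0.02 within PHX3. Cyp4a14 read 6.00 in Cre plus C and 7.23 to 10.38 in the other 7 livers. Fatty acid synthesis genes had a median of 0.12, with Thrsp, a lipogenic regulator, at 1.15 and Srebf1 at 0.60. Cholesterol synthesis genes had a median of 0.08, or 0.43 within PHX2 and −0.19 within PHX3, with Hmgcs1 at −0.47. Among P450 enzymes, with a median of 0.08, Cyp1a2 and Cyp2c29 were separate between genotypes at 0.68 (adjusted p = 0.236) and 0.56 (adjusted p = 0.230). Bile acid genes had a median of −0.08, with Cyp8b1 at −0.69. Urea cycle and amino acid genes had a median of 0.12, and Tat, tyrosine aminotransferase, had 0.52 (adjusted p = 0.410). In gluconeogenesis, with a median of 0.16, Igfbp1, a growth factor binding protein, had 1.08, made of 2.72 within PHX2 and −0.56 within PHX3. Circadian clock genes had a median of 0.28 over 14, led by Bhlhe40 at 0.61 and Nr1d2 at 0.50. Fetal liver genes and heme synthesis genes had medians of −0.03 and −0.10, with Afp, alpha-fetoprotein, at 0.03. Within PHX2 and PHX3 the medians were 0.30 and −0.03 for P450 enzymes, and 0.24 and −0.19 for bile acid genes. They were 0.42 and −0.06 for gluconeogenesis, and 0.45 and 0.04 for circadian clock genes.

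**Figure D3:**
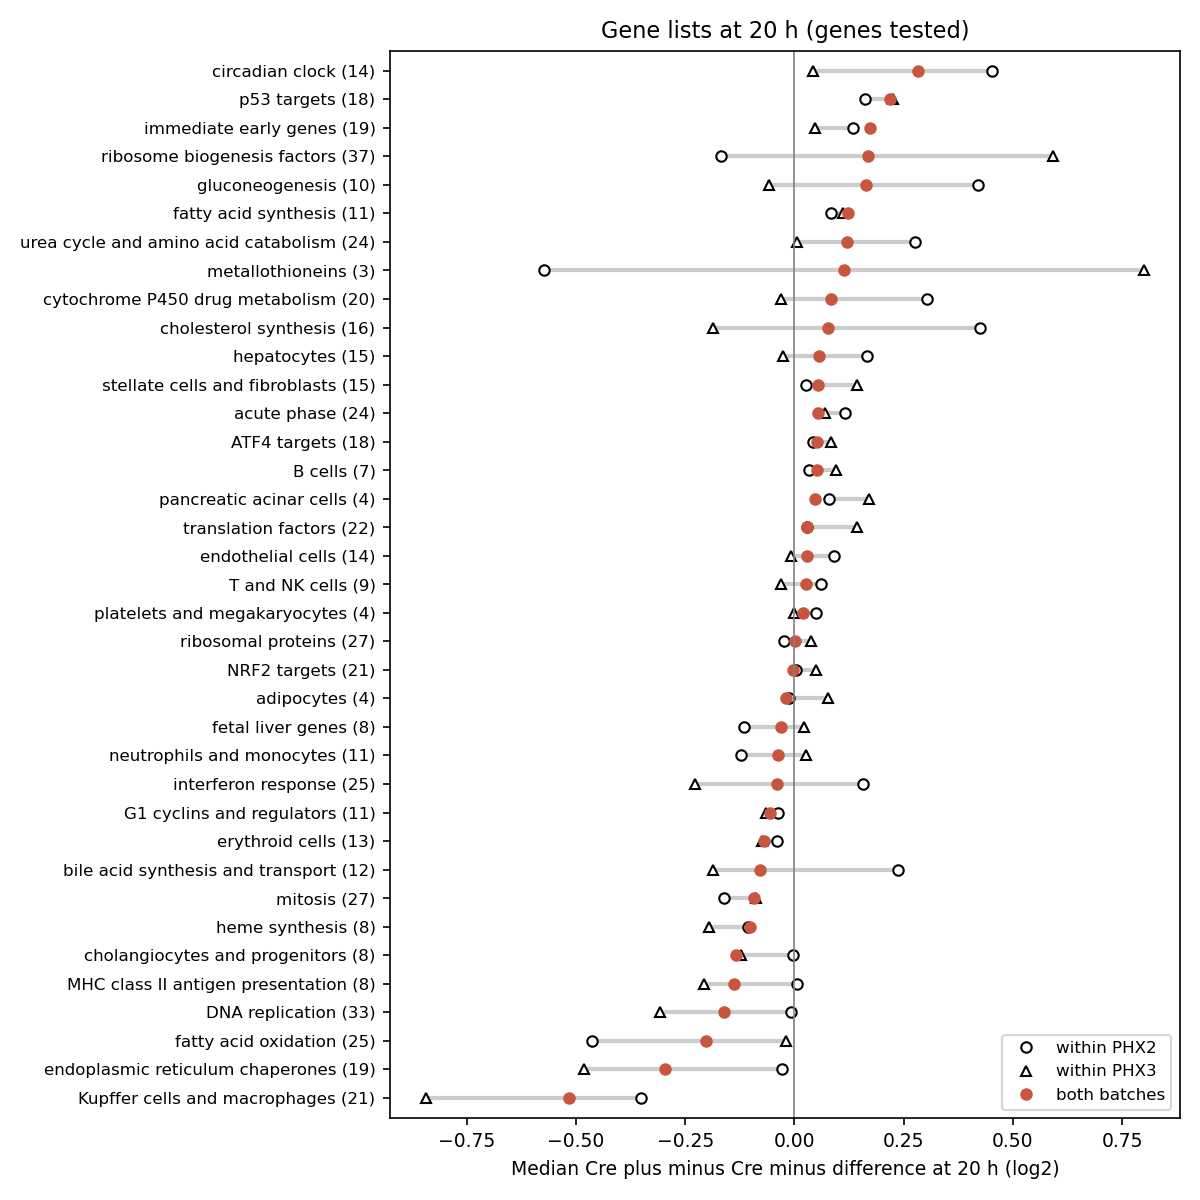
Median Cre plus minus Cre minus difference at 20 h (log2, horizontal axis) of each gene list, with the number of genes tested in brackets. Filled circles are both batches, open circles PHX2 and open triangles PHX3. The Kupffer cell and macrophage list lies lowest over both batches together and is below 0 in each. Within PHX2, metallothioneins (−0.57) and fatty acid oxidation genes (−0.46) lie below its −0.35. Ribosome biogenesis factors have −0.17 in PHX2 and 0.59 in PHX3.

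The genotype difference depended on batch for another set of genes. Over all tested probe sets the differences within PHX2 and within PHX3 correlated at −0.20, with standard deviations of 0.273 and 0.357, and 56.4% had opposite signs. A test of the difference between the batches called 25 probe sets (0.270%), 10 more positive and 15 more negative in PHX3, and all 25 had opposite signs in the batches, which choosing them by that difference favours. After quantile normalization this split was 26 and 17. None of them was among the 27 called for the genotype. With 2 livers in each cell this count was unsteady: leaving out a Cre minus liver gave 7 (A), 1 (B), 0 (C) or 3 (D), and leaving out a Cre plus liver gave 0 (A), 1 (B), 1 (C) or 69 (D). The values below describe these 8 livers.

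Adh4, a retinol and alcohol dehydrogenase of hepatocytes, had the largest such difference. It read 9.31 and 8.93 in the PHX3 controls and 6.47 and 6.10 in the PHX2 controls, against 6.69 and 7.13 in the PHX3 and 7.68 and 8.07 in the PHX2 deleted livers. The controls thus differed by 2.84 (PHX3 minus PHX2) and the deleted livers by −0.96. The genotype difference was 1.59 in PHX2 and −2.21 in PHX3, a gap of −3.80 (adjusted p = 0.0491), and a second Adh4 probe set gave −3.56. Cks2, a cofactor of cyclin-dependent kinases, had 1.22 and −1.92, Hal, histidine ammonia-lyase, 1.63 and −1.11, and Rora, a nuclear receptor of the clock, 1.19 and −0.50. Turned the other way were Rbm14, an RNA-binding co-activator (−1.42 and 1.02), Rmnd5a, part of a ubiquitin ligase (−0.31 and 1.86), and the ribosome biogenesis factors Nop2 (−0.65 and 0.74) and Ddx18 (−0.32 and 0.82). In 23 of the 25 the PHX3 minus PHX2 step had opposite signs in the 2 genotypes. The choice of these probe sets by that gap favours opposite signs, so the count is a description only.

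**Figure D4:**
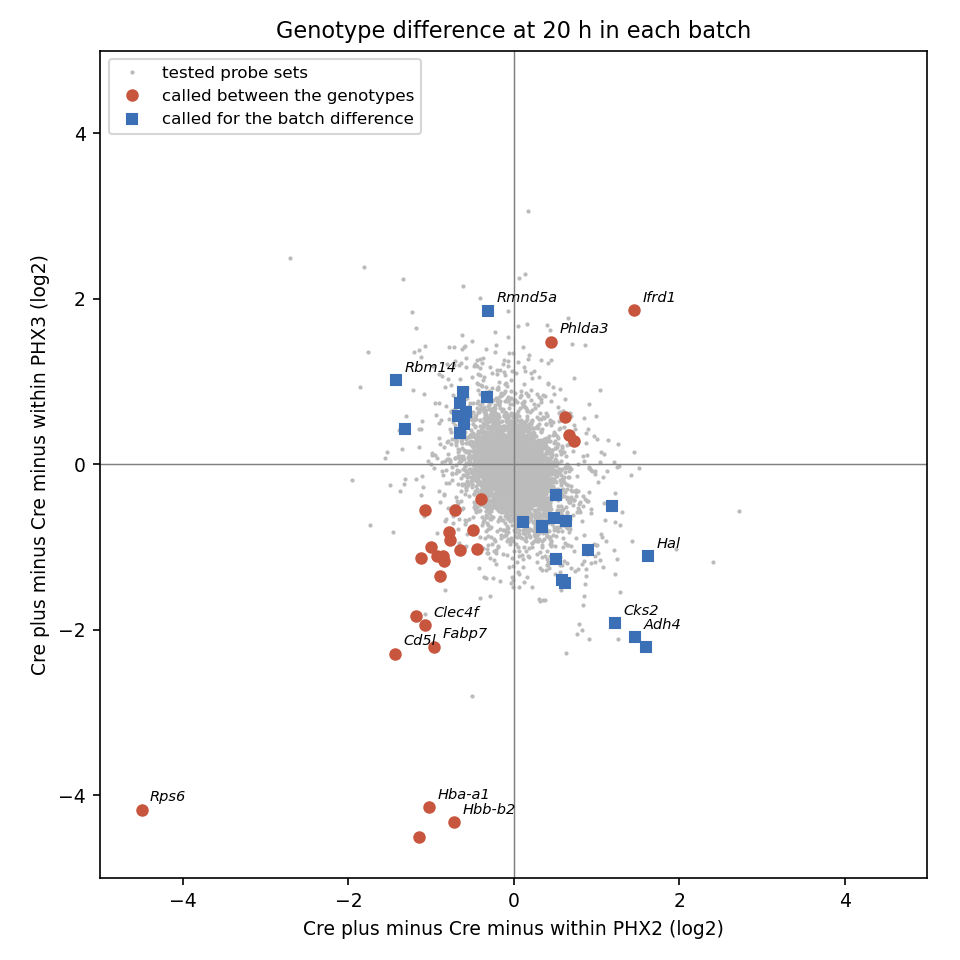
Genotype difference at 20 h within PHX2 (horizontal axis) against that within PHX3 (vertical axis), both log2, for 9249 probe sets. Red circles are the 27 called between genotypes and have the same sign in both batches. Blue squares are the 25 called for the difference between batches and have opposite signs.

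**Figure D5:**
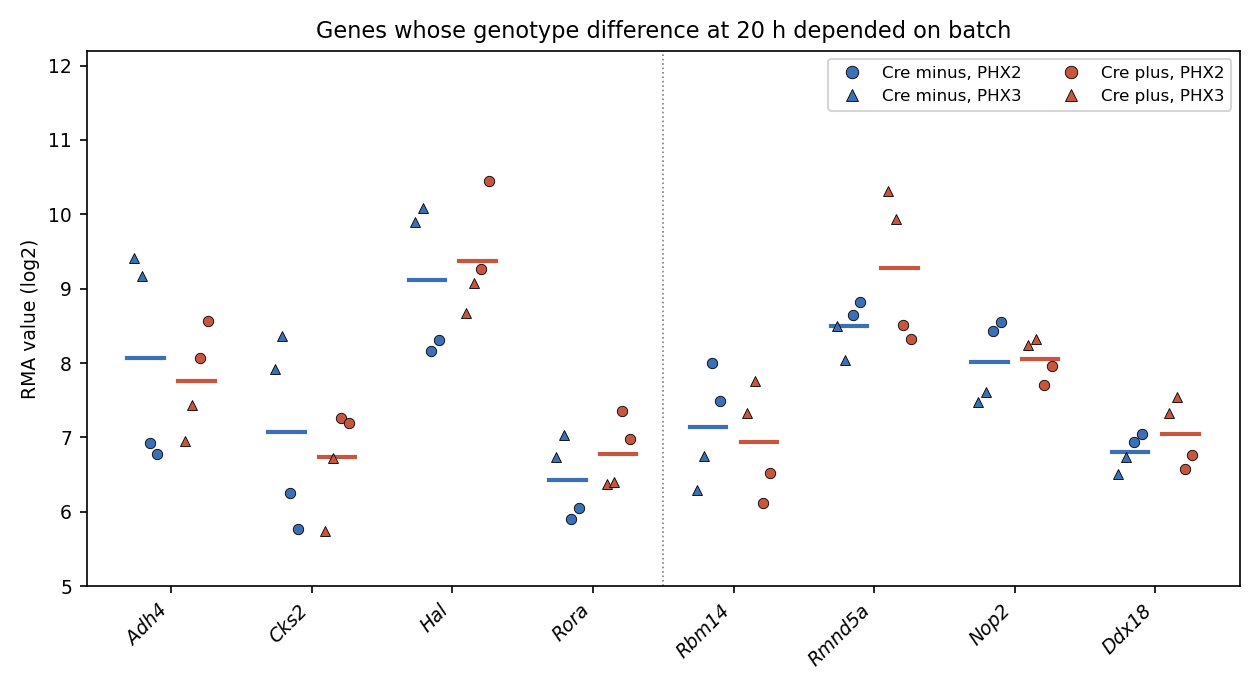
Log2 RMA value (vertical axis) of 8 genes called for the difference between batches, in each liver at 20 h. Circles are PHX2 and triangles PHX3 livers, and bars are means of 4 livers. Left of the dotted line PHX3 deleted livers lie below PHX3 controls, as for Cks2 with 5.74 and 6.72 against 7.92 and 8.37. PHX2 controls are low there as well, at 6.25 and 5.77 for Cks2, and lie below PHX2 deleted livers. Right of the line PHX3 deleted livers lie above PHX3 controls, and PHX2 deleted livers below PHX2 controls.

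Fitted on one batch alone, the comparison gave very different counts. The 15 PHX2 arrays alone called 1 probe set (0.0108%), Rps6, and the 17 PHX3 arrays alone called 289, with 2 livers per genotype at 20 h in each. By genes, PHX3 alone called 98 higher (1.44%) and 129 lower (1.90%). Of its 289 probe sets 185 had the opposite sign in PHX2, where 56.4% of all tested probe sets had opposite signs in the batches. The macrophage list had 9 of 21 lower there, and the p53 targets had 2 of 18 higher, Phlda3 and Cdkn1a. Ribosome biogenesis factors had 7 of 37 higher, among them Nop56, a box C/D snoRNP protein, with 1.42 in PHX3 and −0.79 in PHX2. Endoplasmic reticulum chaperones had 4 of 19 lower, among them Pdia6 with −1.05 in PHX3 and 0.40 in PHX2. Urea cycle and amino acid genes had 3 of 24 lower, Hal, Bhmt (−1.28) and Gldc (−0.82), which had 1.63, 0.73 and 0.27 in PHX2. Snhg1 and Gas5, host genes of small nucleolar RNAs chosen after their values were seen, had 1.56 and 1.19 in PHX3 and −0.63 and −0.45 in PHX2. Of the 21 macrophage genes tested, 3 had opposite signs in the batches, and of the 37 ribosome biogenesis factors 23 did. Over all 6787 genes tested 3823 had opposite signs, a share near that of the ribosome biogenesis factors.

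The 27 calls also rested on the livers of other times, whose spread the fit shared. The 20 h arrays alone called 1 probe set, Rps6. Without Cre plus D the count was 17, and it lay between 18 and 33 without any other liver. Tyrobp, Fabp7, Clec4f, C1qa, C1qb, C1qc, Cd53, Cd5l and Phlda3 stayed called without any 1 liver. The call of Tmsb4x was lost without any of 6 of the 8 livers, that of Plpp3 without any of 3 and that of the second Aldh2 probe set without either of 2. Calls of Hba-a1, Hbb-b2, Pltp, Fcgr1 and Ephx1 were each lost without any of 5 of the 8 livers, and those of Cfp, without Cre plus D, and Ifrd1, without Cre plus B, were lost once.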

How the data were processed

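The deposited values are log2 expression from a 1-colour Affymetrix array, made by the authors with RMA per the submitters' processing notes, with its version not given in the sources used here. Of 12488 probe sets, 66 were array controls. Of the rest 10833 had 1 gene in the platform annotation, 396 several and 1193 none given here. Probe sets above the 30th percentile of their array on at least 3 arrays were tested (9249). limma 3.58.1 in R 4.3.3 was fitted with 8 genotype and time groups and the batch label over 32 arrays, two-sided, with Benjamini-Hochberg adjustment over all tested probe sets at 0.05. A second fit with a mean for each group and batch tested the difference between batches. The code was tested on simulated data. The number of arrays limits the precision.

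Genes were named if called, if among up to 4 members of a list with the largest differences, if among 15 core genes (11 tested), or if among the 6 largest called batch differences. Some further list members are named as background to their list, after their values were seen. A gene entered a list through its probe set of highest mean. The members and the 37 lists were chosen with earlier results of these data known. Replicate letters did not pair the livers (r −0.04 for A minus B and −0.23 for C minus D between genotypes). Promoters were read from RefSeq with python 3.11.15. Alternatives were the arrays fitted, batch, pairing, filter, normalization, variance model, array weights and leaving out each liver.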

Additional observations from a re-analysis of the deposited data

Results flagged for a closer look

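In 358 groups of 4 livers (179 named probe sets), 31 (8.66%) held a liver far from the other 3. The rule's rate of about 1 in 20 is for groups not chosen by their values. Most of these probe sets were named for their 20 h values, so the shares cannot be compared. By liver the 31 were 3 in Cre minus A, 9 in Cre minus B, 2 in Cre minus C, 1 in Cre plus B, and 8 each in Cre plus C and Cre plus D, with 0 in Cre minus D and Cre plus A. All values are log2 levels at 20 h.

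Cre plus C was high for the growth and stress genes Myc (6.63), Btg2 (9.97) and Hmox1 (10.87), and for Cd22 (5.56) and H2-Ab1 (7.23). It was low for the acute phase genes Hamp (12.15), Lcn2 (8.42) and Itih4 (10.88). Cre plus D was low for Pltp (6.31), a Cdkn1a probe set (8.13), Cebpb (10.17), Elovl5 (9.77), Mt1 (11.94) and Mt2 (11.53), and high for Krt18 (11.18) and Ccnd3 (8.06). Cre plus B was high for Rrs1 (7.75).

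Cre minus B was high for Mcm4 (6.37), Rbl1 (4.49), Abcb4 (11.84), Ly6d (9.79) and Rps19 (9.55), and low for Cyp8b1 (7.84), Elovl5 (10.75), Ttr (9.74) and Mt2 (11.71). Cre minus A was high for Nr1h4 (8.18) and low for Saa3 (8.57) and Nop58 (5.33). Cre minus C was high for Fcgr1 (5.94) and for a called probe set with no gene name here (5.94).

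The genotype difference at 20 h differed between the batches, PHX3 minus PHX2, for 9 named probe sets. It was −3.80 and −3.56 for Adh4, −3.14 for Cks2, −2.74 for Hal and −1.69 for Rora. It was 2.44 for Rbm14, 2.17 for Rmnd5a, 1.39 for Nop2 and 1.14 for Ddx18. The limma adjusted p values ran from 0.0178 for Rora to 0.0491 for the first Adh4 probe set.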

How the results depend on the processing

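All 27 called probe sets kept their direction under the alternatives run, and Rps6 was called in each. Against 27 calls at 20 h there were 1 with only the 20 h arrays, 1 with a replicate block on those arrays, 1 with PHX2 arrays alone, 289 with PHX3 arrays alone, 51 with array weights and 43 without arrays correlating under 0.95 with their group. Leaving out each liver gave 17 to 33. Against 25 calls for the difference between batches there were 65 with only the 20 h arrays, 43 after quantile normalization, 263 with array weights and 340 without arrays correlating under 0.95, and 0 to 69 leaving out each liver. Against 0 calls for the 20 h minus 0 h difference there were 1 with array weights and 1 with PHX3 arrays alone. Hal at 20 h was −1.11 and Rbm14 1.02 with PHX3 arrays alone, against 0.26 and −0.20 in both batches. Apart from construction (fewer arrays or livers), the cause of these changes was not tested. The replicate letters did not pair the livers, so the replicate block result is not read as a weaker effect. Centring and the filters left the 20 h count between 23 and 25.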
